A study of Homo sapiens with 16 samples.

Results

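HEK293 cells carrying "optimized" interferon receptors were compared after treatment with H11 and without treatment, with 2 libraries in each group, 4 of the 16 in the study. The libraries were chosen by the genotype and treatment in their labels. HEK293 is a line derived from human embryonic kidney. H11 is a high-affinity variant of IFNL3, a type III interferon. The optimized cells given H11 and the untreated optimized cells share the genotype labelled "Optimized receptors", so the receptor change is present on both sides of the comparison. Ligands were used at 100 nM. The labels give a 15 min exposure and also 24 hr as the time, and their relation is not stated there. No mock-treated group was analysed here, so the treated and untreated libraries may also differ by handling. A further 4 groups of 2 libraries each serve as comparators, namely wild-type HEK293 cells with H11, wild-type cells without treatment, optimized cells with IFNL3, and optimized cells with IFNw, a type I interferon. The labels used here do not say how the receptors were altered, what drives their expression or whether the optimized cells are 1 clone. They number the biological replicates 1 and 2 but do not say that they came from separate cultures. The p-values measure the spread between libraries within groups, taken over all 16 libraries, and that spread may be technical.

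Type III interferons bind a receptor made of IFNLR1 and IL10RB, and type I interferons bind IFNAR1 and IFNAR2. Both receptors carry the kinases JAK1 and TYK2, which phosphorylate STAT proteins. STAT2 and IRF9 are parts of the complex ISGF3, which binds interferon-stimulated response elements in the promoters of antiviral genes. Most cell types respond to type I interferon, whereas IFNLR1 is expressed mainly in epithelial cells.

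The promoters of 6 genes that rose with H11 show that element. They were chosen among genes whose promoters hold it, so a match in each was fixed in advance. The first 4 belong to antiviral genes with high levels after H11, and the last 2 to genes of antigen presentation. Each line runs 5′ to 3′ on the gene's strand from 200 bases before the start site through the first 20 bases from it, taken from RefSeq on GRCh38.p14, and capitals mark each match, on either strand, to GAAA followed by any 2 bases and GAAA again.
ISG15: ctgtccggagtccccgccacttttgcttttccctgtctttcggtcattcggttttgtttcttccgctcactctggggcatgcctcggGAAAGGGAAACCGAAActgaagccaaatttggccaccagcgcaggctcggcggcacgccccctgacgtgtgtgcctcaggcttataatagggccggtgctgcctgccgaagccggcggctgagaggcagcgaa
IFI27: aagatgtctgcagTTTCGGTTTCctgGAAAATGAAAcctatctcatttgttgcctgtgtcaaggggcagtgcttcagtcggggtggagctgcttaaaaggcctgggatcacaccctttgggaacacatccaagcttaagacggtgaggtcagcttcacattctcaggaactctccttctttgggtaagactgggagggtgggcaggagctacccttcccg
IFIT1: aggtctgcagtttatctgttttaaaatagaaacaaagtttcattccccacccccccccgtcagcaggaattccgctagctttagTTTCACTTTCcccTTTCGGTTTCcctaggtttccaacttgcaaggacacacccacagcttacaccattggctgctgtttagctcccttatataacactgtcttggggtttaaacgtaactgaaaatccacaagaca
IFITM1: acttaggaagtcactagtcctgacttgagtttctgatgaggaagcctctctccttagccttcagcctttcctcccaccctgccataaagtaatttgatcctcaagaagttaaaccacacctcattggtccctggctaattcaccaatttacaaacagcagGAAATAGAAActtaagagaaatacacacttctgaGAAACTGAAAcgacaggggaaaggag
B2M: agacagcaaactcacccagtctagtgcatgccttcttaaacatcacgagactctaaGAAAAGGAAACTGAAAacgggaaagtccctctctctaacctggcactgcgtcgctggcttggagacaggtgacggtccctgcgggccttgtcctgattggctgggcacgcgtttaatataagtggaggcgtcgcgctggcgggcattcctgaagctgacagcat
PSMB8: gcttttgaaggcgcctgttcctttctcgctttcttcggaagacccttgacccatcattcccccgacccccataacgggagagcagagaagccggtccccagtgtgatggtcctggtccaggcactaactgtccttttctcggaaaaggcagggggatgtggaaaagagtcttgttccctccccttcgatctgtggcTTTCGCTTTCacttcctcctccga
These stretches lie at chr1:1013297-1013516 on the plus strand for ISG15, chr14:94110615-94110834 on the plus strand for IFI27, chr10:89392423-89392642 on the plus strand for IFIT1 and chr11:313840-314059 on the plus strand for IFITM1. They lie at chr15:44711317-44711536 on the plus strand for B2M and chr6:32844028-32844247 on the minus strand for PSMB8. The capitals in ISG15 and B2M are a pair of overlapping matches each. In IFI27 and IFIT1 the pair is separated by 3 bases. In IFITM1 the matches start 40 and 6 bases before the start site, and the single match in PSMB8 spans the start site.

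The motif was searched on both strands in RefSeq windows of 250 bases before to 50 bases after each start, and windows were found for 9963 of the 12704 genes tested. Of the genes that rose more than 8-fold with H11, 32 of 55 promoters held it, or 58.2%, and of those that rose more than 2-fold, 62 of 648 held it, or 9.57%. Among genes that fell more than 2-fold the share was 3.22%, or 13 of 404. Tested members of the antiviral list held it in 31 of 42 promoters (73.8%) and those of the MHC class I list in 8 of 16 (50%), whereas none of 23 promoters in the amino-acid response list did. Over all 35116 promoters in the table the share was 3.57%, and over the 9963 tested genes with a window it was 2.98%. Among genes that rose, OAS1, IRF9, PSMB9 and TAP1 held no match. The shorter motif TTCNNNGAA, read by STAT dimers, was in 25.5% of the genes up more than 8-fold. It was in 6.07% of tested genes with a window and in 7.66% of all promoters. A match is a description of letters only.

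The measurements are read counts for 20802 gene targets, given here as CPM, the count relative to the scaled size of its library. The libraries with H11 held 9632766 and 8519241 reads, and the untreated libraries 9334209 and 5331203. All 16 libraries lay between 5331203 and 9822088. The 2 untreated optimized libraries were the least alike of the replicate pairs, with a Pearson correlation of log CPM of 0.966 across genes, against 0.983 for the H11 pair, so values without each untreated library are given where they differ. Libraries also differed in a trend with transcript length. Spearman's rho across genes between length and each gene's log2 CPM relative to its mean over the 16 libraries was -0.30 in both H11 libraries, against 0.11 and 0.06 in the untreated libraries, and values with a length term are given beside several results. Embryonic kidney line markers summed to 494 and 438 CPM with H11, against 670 and 650 CPM untreated. Most of that was VIM, at 342.5 and 271.3 CPM with H11, against 459.3 and 459.4 CPM untreated. KRT18 did not fall with the sum, at 57.05 and 57.12 CPM with H11, against 54.55 and 40.25 CPM untreated. PAX2 was scarce, at 1.282 and 0.9947 CPM with H11, against 1.323 and 1.575 CPM untreated. Blood markers summed to at most 1.85 CPM with H11 and 2.65 CPM untreated, with PTPRC, CD3E and MS4A1 at 0 reads in all 4 libraries. The 8 fibroblast markers summed to 23.1 and 22.2 CPM with H11, against 29.1 and 25.03 CPM untreated, of which COL1A1 and THY1 made up nearly all, and COL1A2, COL3A1, DCN and LUM were at 0 in all 4 libraries. The 11 neuron markers summed to 102 and 131 CPM with H11, against 114 and 118 CPM untreated, most of it TUBB3 and INA, with RBFOX3 and STMN2 at 0.

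Of 12704 genes tested with edgeR's quasi-likelihood test at a Benjamini-Hochberg adjusted p of 0.05, 2185 (17.2%) rose with H11 and 1931 (15.2%) fell. More than 2-fold, 839 rose (6.6%) and 528 fell (4.16%). The spread behind these calls was taken over all 8 groups, and with only the 4 libraries compared 1256 genes rose and 765 fell. The libraries of the groups did not overlap for 7776 genes (61.2%). Most of the largest changes were increases. Between 8-fold and 32-fold 41 genes rose, 10 of them from the antiviral list, and 37 rose more than 32-fold, 27 of them antiviral. By contrast 11 genes fell between 8-fold and 32-fold and 3 fell more than 32-fold. The median log2 fold change over all tested genes was -0.03.

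The receptor chains themselves changed little in mRNA. Of 10 receptor and kinase genes tested, 1 rose and 1 fell. IFNLR1, the ligand-binding chain for type III interferons, listed as IL28RA, had 2.05 and 3.98 CPM with H11, against 3.16 and 2.28 CPM untreated, a log2 difference of 0.11 ± 0.44 (SE). IL10RB had 19.6 and 22.9 CPM with H11, against 21.7 and 26.2 CPM untreated, a log2 difference of -0.17. The groups overlapped for both chains, and reads for endogenous and introduced receptor cannot be separated in these counts. IFNAR1 had 11.03 and 13.2 CPM with H11, against 12.3 and 22.6 CPM untreated, and TYK2 had 29.4 and 26 CPM, against 34.9 and 29.05 CPM. JAK1 had 7.44 and 6.96 CPM with H11, against 15.6 and 11.6 CPM untreated, and its log2 difference of -0.93 ± 0.29 passed at an adjusted p of 0.02 by edgeR's quasi-likelihood test. That call was lost without untreated replicate 1, at -0.68, without H11 replicate 1, at -0.94, without H11 replicate 2, at -0.85, and with the length term, at -0.64. The single rise was IFNGR1, a chain of the type II receptor, at 50.5 and 44.3 CPM with H11, against 33.5 and 29.8 CPM untreated. Its log2 difference of 0.58 ± 0.15 was no longer called without H11 replicate 1, at 0.52, and in a fit of only the 4 libraries compared, at 0.59.

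Genes of the transcription factor complex rose. IRF9, its DNA-binding subunit, had 118 and 119 CPM with H11, against 3.66 and 4.38 CPM untreated, a 29.8-fold difference (log2 4.90 ± 0.16). STAT2 had 82.9 and 83.8 CPM with H11, against 33.7 and 37.3 CPM untreated, a 2.36-fold difference (log2 1.24 ± 0.13). The H11 libraries lay above both untreated libraries for both subunits. IRF7, the regulator that amplifies interferon gene transcription, reached 314 and 365 CPM with H11, against 8.45 and 11.4 CPM untreated, which is 34.9-fold higher (log2 5.12 ± 0.25). IRF3 had 78.6 and 84.8 CPM with H11, against 41.7 and 40.4 CPM untreated, and IRF1 had 10.3 and 8.81 CPM, against 4.88 and 4.03 CPM. All of these passed edgeR's quasi-likelihood test, the largest adjusted p being 0.0013 for IRF1. In the list of JAK-STAT and ISGF3 genes 7 of 12 rose and 1 fell, IRF5, at 13.3 and 13.2 CPM with H11, against 17.3 and 21.4 CPM untreated. The log2 difference of IRF5 was -0.53, and no member of the list was called down without H11 replicate 1, H11 replicate 2 or untreated replicate 2. STAT3 had 66.3 and 64.1 CPM with H11, against 68.8 and 48.1 CPM untreated, and its groups overlapped.

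Antiviral effectors rose. Of 58 tested members of that list 54 rose and none fell, with a median log2 fold change of 4.73, or 3.80 when genes near 0 reads in untreated cells are held at their lower bound, and between 50 and 54 rose when each H11 or untreated library was left out. IFI6, a membrane protein of the endoplasmic reticulum and mitochondria, had 8225 and 7808 CPM with H11, against 45.5 and 54.3 CPM untreated, a 161-fold difference (log2 7.33 ± 0.15). IFIT1, which binds viral RNA lacking a cellular cap structure, had 2214 and 2018 CPM with H11, against 6.72 and 7.18 CPM untreated, 305-fold higher (log2 8.26 ± 0.17). Outside that list, ISG15, a ubiquitin-like modifier, had 6757 and 7523 CPM with H11, against 17.5 and 13.0 CPM untreated, a 461-fold difference (log2 8.85 ± 0.18). In each of these genes the H11 libraries stood far above the untreated ones, and replicates within a group were close. The adjusted p of ISG15, IFI6 and IFIT1 was 4e-16 each by edgeR's quasi-likelihood test.

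IFITM1, a membrane protein that restricts viral entry, had 675 and 667 CPM with H11, against 3.66 and 4.73 CPM untreated, a 163-fold difference (log2 7.35 ± 0.19). Its relative IFITM3 had 688 and 681 CPM with H11, against 3.26 and 6.13 CPM untreated (log2 7.27 ± 0.21). IFI27, another mitochondrial interferon-induced protein, had 3179 and 2907 CPM with H11, against 0.71 and 0.35 CPM untreated. Only 9 reads lie behind the untreated values of IFI27, and its log2 fold change of 12.33 became 13.03 without untreated replicate 1.

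Several effectors had no reads in untreated cells. IFI44 had 401 and 338 CPM with H11, against 0 reads in both untreated libraries. With an upper limit of 3 reads over the untreated group, or 0.193 CPM, IFI44 was at least 1923-fold higher with H11. By the same limit IFIT3, which binds IFIT1, was at least 452-fold higher, at 93.7 and 80.1 CPM with H11. RSAD2, which encodes the antiviral enzyme viperin, was at least 332-fold higher, at 67.2 and 60.8 CPM with H11. The corresponding bounds were 224-fold for IFI44L, 91.5-fold for OASL and 31.8-fold for the guanylate-binding GTPase GBP1. OAS1, which makes 2-5A in response to double-stranded RNA, had 473 and 446 CPM with H11, against 2 reads in untreated replicate 1 and 0 in replicate 2. The ratio of OAS1 was 3575, with a counting interval of 989 to 29530, and its fitted log2 fold change moved to 15.01 without untreated replicate 1. OAS2 had 158 and 154 CPM with H11, against 2 reads in the untreated group, a ratio of 1216 with a counting interval of 336 to 10050. These intervals and limits cover counting error only.

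Among the 4 antiviral genes not called was MX1, a GTPase that is a common marker of interferon response in other cells. MX1 had 0.77 and 0.71 CPM with H11, against 0.41 and 0.53 CPM untreated, on 11 reads with H11 and 7 untreated. APOBEC3F had 5.26 CPM in both H11 libraries, against 4.78 and 5.78 CPM untreated, and SLFN5 had 5.26 and 5.40 CPM, against 8.55 and 3.15 CPM. Groups overlapped for APOBEC3F and SLFN5. PLSCR1, BST2 and EIF2AK2, picked after their values were seen, rose from untreated levels that were already measurable. PLSCR1 had 391 and 318 CPM with H11, against 28.7 and 28.4 CPM untreated, a log2 difference of 3.63. BST2, which tethers budding virions, had 925 and 893 CPM with H11, against 206 and 216 CPM untreated, a log2 difference of 2.11. EIF2AK2, the RNA-activated kinase PKR, had 248 and 218 CPM with H11, against 63.9 and 87.2 CPM untreated, a log2 difference of 1.63.

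**Figure D1:**
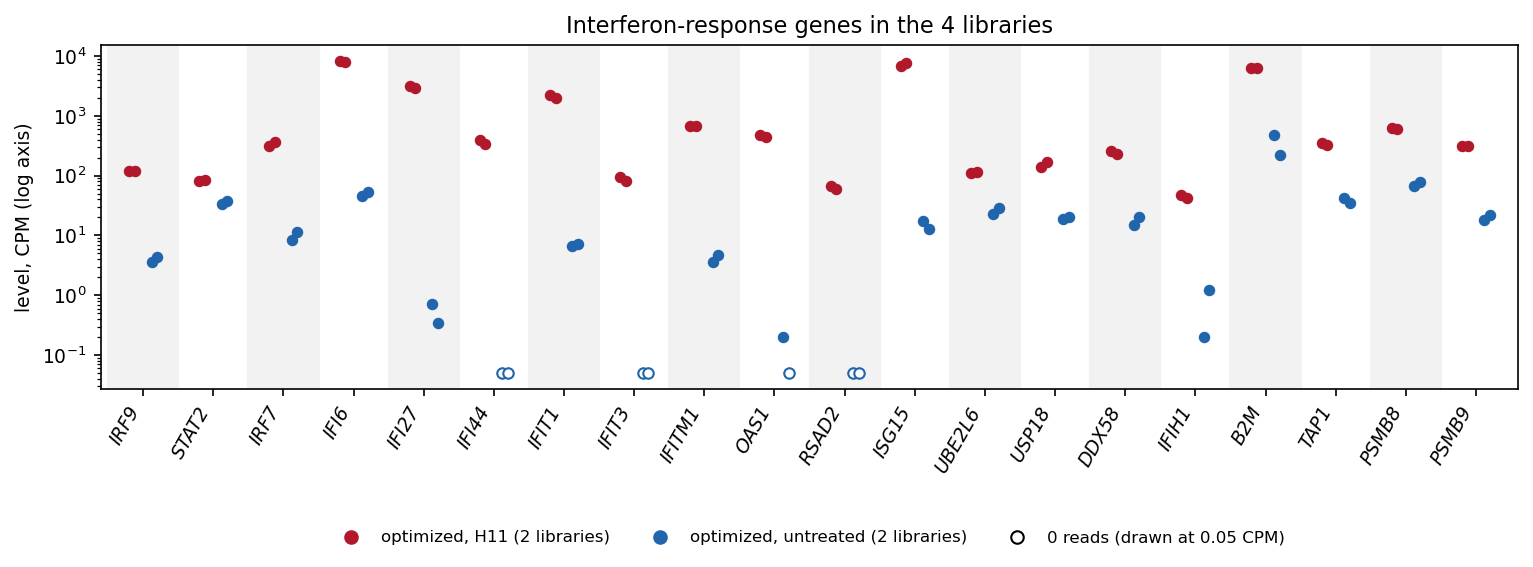
CPM on a log axis for 20 interferon response genes in each library, H11 libraries to the left of the untreated libraries of optimized cells, with open circles for 0 reads drawn at 0.05 CPM. ISG15 lies at 6757 and 7523 CPM with H11, against 17.5 and 13.0 CPM untreated, and IFI44 has open circles in both untreated libraries.

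Cytosolic RNA sensors rose and their adaptor fell. Of 8 tested sensor and adaptor genes, 6 rose and 1 fell. RIG-I, encoded by DDX58, had 254 and 226 CPM with H11, against 14.8 and 20.1 CPM untreated, a 13.98-fold difference (log2 3.81 ± 0.16). MDA5, encoded by IFIH1, had 48.0 and 42.6 CPM with H11, against 0.20 and 1.23 CPM untreated on 9 reads. Its log2 fold change of 6.24 was 5.19 without untreated replicate 1 and 7.70 without replicate 2. DHX58, a regulator of both sensors, had 18.1 and 19.9 CPM with H11, against 0 reads untreated, at least 98.1-fold higher. MAVS, the mitochondrial adaptor below RIG-I and MDA5, had 10.8 and 9.09 CPM with H11, against 19.8 and 17.9 CPM untreated. Its log2 fold change of -0.93 ± 0.18 had an adjusted p of 0.00092 by edgeR's quasi-likelihood test, with both H11 libraries below both untreated ones.

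All 7 members of the ISG15 conjugation list, which holds ISG15 with its ligases and its protease, rose, with a median log2 fold change of 2.97. UBE2L6, the conjugating enzyme, had 112 and 113 CPM with H11, against 22.6 and 28.5 CPM untreated, a 4.45-fold difference. HERC5, the main human ligase for ISG15, had 68.7 and 61.4 CPM with H11, against 12.5 and 12.1 CPM untreated, a 5.28-fold difference, and its homolog HERC6 had 65.8 and 55.3 CPM, against 5.70 and 8.75 CPM. UBA7, the activating enzyme, had 21.8 and 19.04 CPM with H11, against 0.10 and 0.70 CPM untreated on 5 reads. Its log2 fold change of 5.91 was 4.84 without untreated replicate 1 and 7.47 without replicate 2. USP18, the ISG15 protease that also blocks the type I receptor, had 140 and 166 CPM with H11, against 18.9 and 20.3 CPM untreated, a 7.81-fold difference (log2 2.97 ± 0.15).

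USP18 was the 1 of 8 tested negative feedback genes that rose, while 2 fell and the list's median was -0.28. Without untreated replicate 2 that median was 0.02, and with the length term it was -0.04. PTPN11, the phosphatase SHP2, had 67.4 and 66.5 CPM with H11, against 124 and 86.5 CPM untreated, and its log2 difference of -0.66 was no longer called without untreated replicate 1, at -0.37. PIAS1, an inhibitor of STAT signalling, had 75 and 61.0 CPM with H11, against 85.8 and 97.0 CPM untreated, a log2 difference of -0.42. The call of PIAS1 was lost without H11 replicate 2, at -0.24, without untreated replicate 2, at -0.34, and with the length term, at -0.12. The 9 interferon genes sought were below the filter on low counts.

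Antigen presentation by MHC class I rose as a group. Of 20 tested genes 17 rose and none fell, with a median log2 fold change of 2.16, and 14 to 19 rose when each library was left out, the lowest without untreated replicate 2. B2M, the light chain of class I molecules, had 6279 and 6209 CPM with H11, against 476 and 217 CPM untreated, an 18.0-fold difference (log2 4.17 ± 0.24). The log2 value of B2M was 4.85 without untreated replicate 1. HLA-B, a class I heavy chain, had 838 and 841 CPM with H11, against 144 and 83.7 CPM untreated, a 7.35-fold difference. Class I heavy chain genes share sequence, so reads may be divided between them.

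The machinery that makes and loads peptides rose with the class I chains. PSMB9, a catalytic subunit of the immunoproteasome, had 308 and 314 CPM with H11, against 18.2 and 21.9 CPM untreated, a 15.6-fold difference (log2 3.97 ± 0.19). PSMB8, another such subunit, had 620 and 604 CPM with H11, against 66.7 and 78.6 CPM untreated, an 8.44-fold difference. TAP1, a chain of the peptide transporter, had 347 and 328 CPM with H11, against 42.7 and 35.2 CPM untreated, an 8.62-fold difference. For each of these genes the H11 libraries agreed closely and lay above both untreated libraries, and the largest adjusted p among B2M, PSMB9, PSMB8 and TAP1 was 1e-09 by edgeR's quasi-likelihood test. NLRC5, the activator of class I gene transcription, had 29.5 and 30.8 CPM with H11, against 9.36 and 10.5 CPM untreated, a log2 difference of 1.61. Of the general folding factors on the list, PDIA3 and CANX were not called, with PDIA3 at 567 and 487 CPM with H11, against 457 and 238 CPM untreated. CANX had 286 and 256 CPM with H11, against 255 and 142 CPM untreated, and both were called without untreated replicate 1, at log2 differences of 1.15 for PDIA3 and 0.94 for CANX. PDIA3 was also called with the length term, at 0.82.

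Genes linked to cell death rose in 8 of 13 tested cases with none down, at a smaller median log2 fold change of 0.77. The chemokine and antiviral lists also hold TNFSF10 and XAF1, whose rises were far above that median. TNFSF10, which encodes the death ligand TRAIL, had 6.79 and 9.09 CPM with H11, against 0.31 and 0.53 CPM untreated on 6 reads, a 19.7-fold difference (log2 4.30 ± 0.55). XAF1, an antagonist of apoptosis inhibitors, was at least 30.7-fold higher, at 6.79 and 4.97 CPM with H11, against 0 reads untreated. BAK1, which permeabilises mitochondria, had 60.4 and 65.8 CPM with H11, against 32.5 and 25.4 CPM untreated, and BID, which activates it, had 17.1 and 15.4 CPM, against 5.90 and 5.25 CPM. CDKN2C, a cyclin-dependent kinase inhibitor, had 184 and 172 CPM with H11, against 104 CPM in both untreated libraries.

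Chemokines were scarce. Of 7 tested chemokine and IRF1-dependent genes 5 rose, and 3 did without untreated replicate 2. CXCL10, a chemokine for activated T cells, had 13 reads over the H11 group and 0 untreated, at least 4.54-fold higher, and its call was lost without H11 replicate 1 or either untreated library. WARS, a tRNA synthetase also induced by interferon gamma, had 259 and 281 CPM with H11, against 219 and 190 CPM untreated, a log2 difference of 0.40. The call of WARS was lost without H11 replicate 2, at 0.37, without untreated replicate 2, at 0.30, and with the length term, at 0.20.

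**Figure D2:**
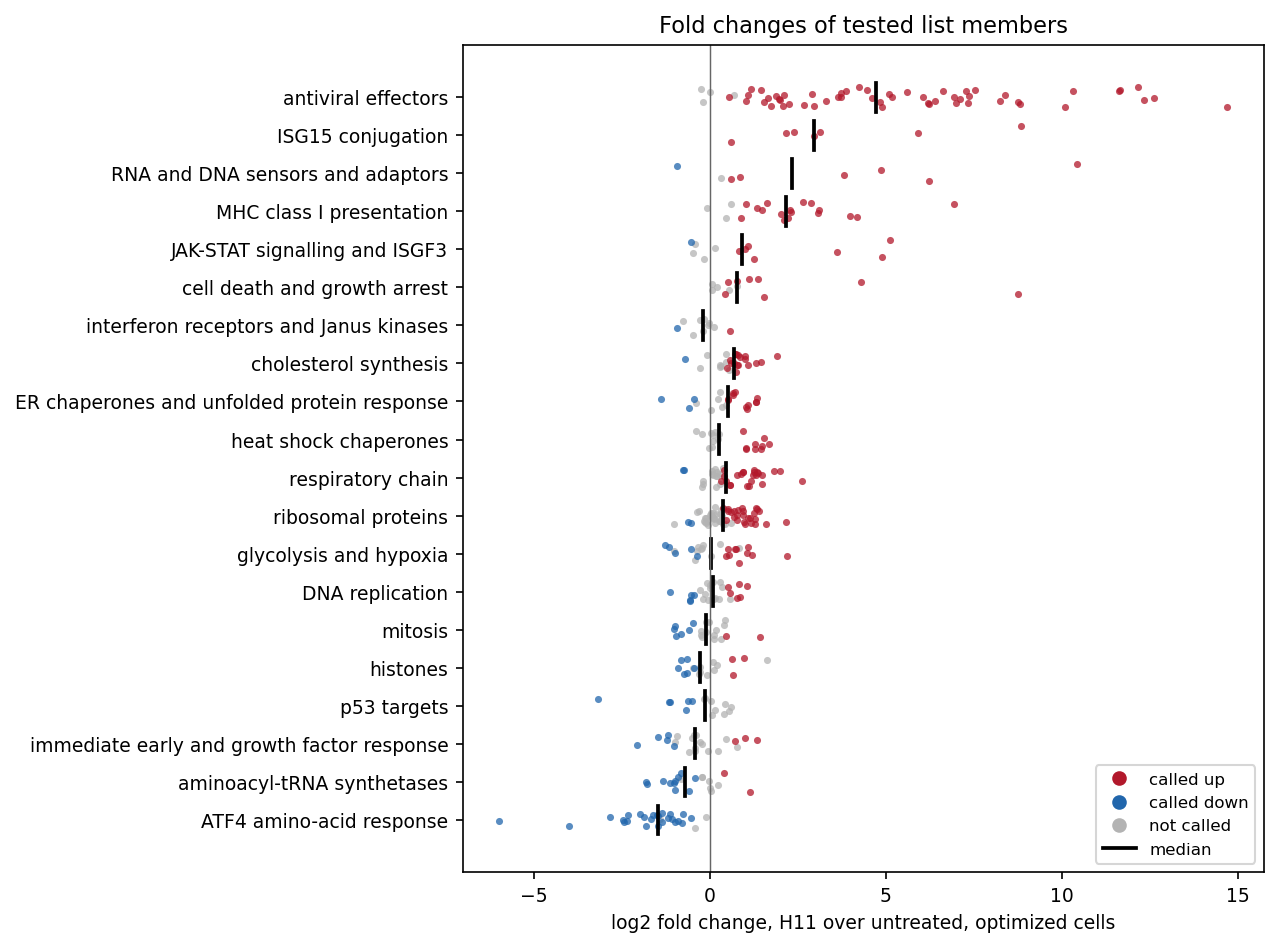
Log2 fold change of H11 over untreated optimized cells for the tested members of 20 gene lists, each point 1 gene and each bar the list's median. The antiviral list has a median of 4.73, the MHC class I list 2.16 and the amino-acid response list -1.48, while the median over all genes is -0.03.

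The amino-acid response fell. ATF4 is a transcription factor made when amino acids are short or the endoplasmic reticulum is stressed, and its targets take up and make amino acids. Of 28 tested genes of that list 25 fell and none rose, with a median log2 fold change of -1.48, and 22 to 25 fell when each library was left out. CHAC1, which degrades glutathione, had 6.54 and 6.96 CPM with H11, against 110.0 and 109.7 CPM untreated, a log2 fold change of -4.02 ± 0.20. INHBE, a subunit of activin, had 0.38 and 0.14 CPM with H11 on 4 reads, against 13.9 and 22.4 CPM untreated. The log2 fold change of INHBE was -5.99, or -6.81 without H11 replicate 1. DDIT4, an inhibitor of the growth kinase mTORC1, had 24.9 and 23.9 CPM with H11, against 109 and 140.0 CPM untreated, a log2 fold change of -2.35 ± 0.18, and the secreted STC2 had 30.1 and 22.7 CPM, against 144 and 146 CPM.

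Amino-acid transporters and synthesis enzymes were in the fall. SLC7A11, which imports cystine, had 15.9 and 18.1 CPM with H11, against 101 and 142 CPM untreated, a log2 fold change of -2.83 ± 0.22. SLC7A5, which imports large neutral amino acids, had 84.0 and 90.4 CPM with H11, against 332 and 315 CPM untreated, a log2 fold change of -1.89 ± 0.12 with an adjusted p of 4.3e-09 by edgeR's quasi-likelihood test. SLC1A4, a carrier of serine and alanine that is on none of the lists, had 22.4 and 17.8 CPM with H11, against 90.8 and 83.5 CPM untreated. CTH, which makes cysteine, had 19.6 and 26 CPM with H11, against 109 and 122 CPM untreated. ASNS, picked after its values were seen as the enzyme that makes asparagine, had 122 and 116 CPM with H11, against 378 and 288 CPM untreated, a log2 fold change of -1.48 ± 0.14. The H11 libraries lay below both untreated libraries for each of these genes.

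The mRNA of ATF4 itself was not called, at 848 and 762 CPM with H11, against 986 and 753 CPM untreated, a log2 difference of -0.11 ± 0.13 with an adjusted p of 0.54 by edgeR's quasi-likelihood test. Its groups overlapped. ATF4 is known to be controlled mainly at translation, which these counts do not measure. Of the 23 promoters of this list that were matched, 3 held the letters TGATGNAA, the core of the element that ATF4 binds. That share was 13%, against 1.81% of tested genes with a promoter window and 3.62% of all promoters.

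Among 20 aminoacyl-tRNA synthetases, which load amino acids onto tRNA, 11 fell and 2 rose, with a median of -0.71, or -0.44 without untreated replicate 1. GARS, for glycine, had 82.9 and 108 CPM with H11, against 310 and 368 CPM untreated, a log2 fold change of -1.83 ± 0.15. AARS, for alanine, had 149 and 143 CPM with H11, against 342 and 301 CPM untreated, and CARS, for cysteine, had 5.26 and 3.55 CPM, against 14.7 and 15.9 CPM. FARSA, a subunit for phenylalanine, rose, at 150 and 167 CPM with H11, against 85.2 and 58.5 CPM untreated. WARS was the other member that rose.

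**Figure D3:**
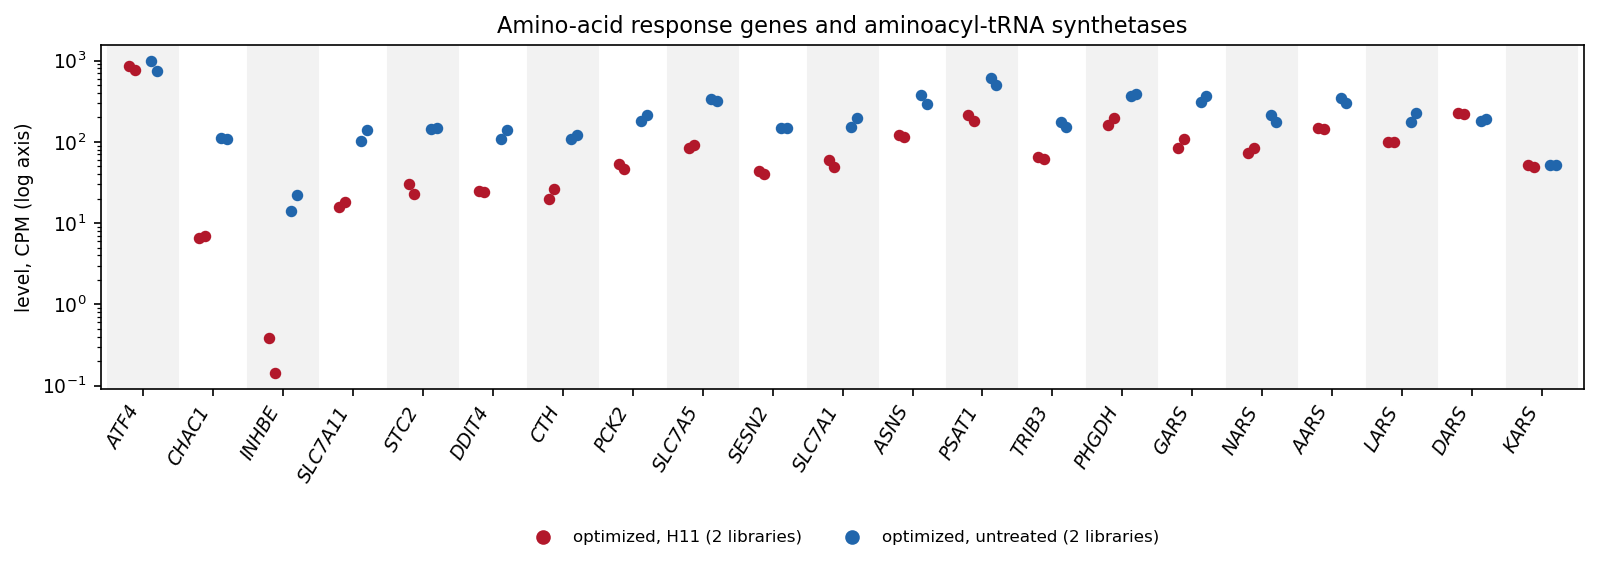
CPM on a log axis for 21 genes of the amino-acid response and its surroundings in each library, H11 libraries to the left of the untreated libraries of optimized cells. CHAC1 lies at 6.54 and 6.96 CPM with H11, against 110.0 and 109.7 CPM untreated, while the points for ATF4 overlap.

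Other falls were outside these lists. Among the 15 largest falls, AKNA had 1.54 and 1.85 CPM with H11, against 12.8 and 12.3 CPM untreated, and HHIP, an antagonist of hedgehog ligands, had 1.54 and 1.28 CPM, against 7.84 and 9.45 CPM. TBL1X, part of a corepressor complex, had 17.3 and 13.5 CPM with H11, against 66.2 and 57.8 CPM untreated. TSC22D3, the glucocorticoid-induced leucine zipper, had 33.2 and 34.5 CPM with H11, against 154 and 117 CPM untreated. FLJ35024, LOC283174, FRY and FLJ46906 were the others, beside SLC1A4, that are on none of the lists. All 9 had log2 fold changes between -3.10 and -1.99, with the H11 libraries below both untreated libraries.

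Immediate early and growth factor genes were mixed, with 5 of 22 tested down and 3 up, and 3 down without H11 replicate 2. PHLDA1 had 13.6 and 12.5 CPM with H11, against 32.1 and 42.0 CPM untreated, and SPRED2, an inhibitor of growth factor signalling, had 12.4 and 12.6 CPM, against 25.6 and 32.9 CPM. IER3 rose, at 18.6 and 14.6 CPM with H11, against 6.31 and 6.83 CPM untreated. Among 8 NF-kappaB targets 1 rose and 1 fell, NFKBIA at 0.53 and NFKB2 at -0.53 on the log2 scale, and both calls were lost with the length term, at 0.41 and -0.37. The call of NFKBIA was also lost without untreated replicate 1 or either H11 library, and that of NFKB2 without untreated replicate 2 or either H11 library. Of 15 p53 targets 6 fell and none rose, among them BBC3, a death gene, at 15.9 and 9.38 CPM with H11, against 24.3 and 31.5 CPM untreated, and POLH, a repair polymerase, at 15.1 and 14.3 CPM, against 24.0 and 21.7 CPM. GDF15, also driven by stress kinases, had 0.38 and 0.57 CPM with H11 on 7 reads, against 3.97 and 4.90 CPM untreated.

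Chaperones rose in part. Of 20 genes for endoplasmic reticulum chaperones and the unfolded protein response 11 rose and 3 fell, with a median log2 fold change of 0.51. PDIA4, a disulfide isomerase, had 81.5 and 95.1 CPM with H11, against 32.3 and 40.3 CPM untreated, a log2 fold change of 1.29 ± 0.15, and CRELD2 had 148 and 163 CPM, against 80.8 and 67.0 CPM. HERPUD1, which serves degradation at the endoplasmic reticulum, fell, at 60.9 and 55.3 CPM with H11, against 144 and 161 CPM untreated. CALR passed the test at 2167 and 1776 CPM with H11, against 1184 and 382 CPM untreated, but its log2 difference of 1.33 was 0.73 and no longer called without untreated replicate 2, 1.21 and no longer called without H11 replicate 1, and 2.37 without untreated replicate 1. In the cytosol and mitochondria 9 of 19 heat shock genes rose and none fell. The co-chaperone DNAJA1 had 724 and 748 CPM with H11, against 223 and 241 CPM untreated, a 3.18-fold difference, and HSPE1, of the mitochondrial chaperonin, had 1627 and 1652 CPM, against 516 and 696 CPM. The median of the heat shock list was 0.25, with 0.71 and 0.56 when untreated replicate 1 or 2 was left out.

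Cholesterol synthesis genes rose, 17 of 26 tested with 1 down, at a median log2 fold change of 0.69, or 0.59 with the length term and the same counts. IDI1, which isomerises the isoprenoid building block, had 407 and 422 CPM with H11, against 103 and 118 CPM untreated, a 3.76-fold difference (log2 1.91 ± 0.11). FDPS, which makes farnesyl diphosphate, had 162 and 190 CPM with H11, against 96.6 and 79.6 CPM untreated. FDFT1, the first enzyme committed to sterols, had 812 and 648 CPM with H11, against 399 and 134 CPM untreated, a log2 fold change of 1.45, or 2.45 without untreated replicate 1. The member that fell was SREBF2, the transcription factor that switches the pathway on, at 68.1 and 77.2 CPM with H11, against 111 and 129 CPM untreated.

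Genes of the respiratory chain and ribosome also rose in part, with a length trend moving alongside. Of 41 respiratory chain genes 24 rose and 2 fell, with a median log2 fold change of 0.45, and with the length term 20 rose and 5 fell, with a median of 0.28. COX7B, a subunit of cytochrome oxidase, had 4061 and 4070 CPM with H11, against 1332 and 723 CPM untreated, and UQCRB, of the bc1 complex, had 1992 and 1902 CPM, against 826 and 564 CPM. Of 58 ribosomal protein genes 26 rose and 2 fell, with a median of 0.37, and with the length term 22 rose and 5 fell, with a median of 0.18. RPS27 had 3223 and 3175 CPM with H11, against 1267 and 1318 CPM untreated, and RPL35 had 6651 and 6263 CPM, against 2927 and 1987 CPM. These transcripts are short, H11 libraries had a length rho of -0.30, against 0.11 and 0.06 untreated, and the part of that trend in the result was not tested beyond the length term. Ribosomal proteins have many processed pseudogenes, so their counts are uncertain. The factors that scaled library size were 0.81 and 0.83 with H11, against 1.05 and 1.07 untreated, and shifts this small depend on that scaling.

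Cell cycle genes moved in both directions. Of 20 mitosis genes 6 fell and 2 rose. MKI67, the proliferation antigen, had 52.4 and 60.8 CPM with H11, against 93.3 and 137 CPM untreated, and TOP2A, a topoisomerase, had 253 and 224 CPM, against 400.2 and 448 CPM. CDK1, the mitotic kinase, rose, at 1416 and 1258 CPM with H11, against 590 and 402 CPM untreated, a log2 fold change of 1.43 ± 0.16. Of 25 replication genes 6 rose and 5 fell, or 4 and 3 with the length term, with CDT1, which licenses origins, at 36.7 and 38.6 CPM with H11, against 71.3 and 96.4 CPM untreated. Histone genes held 6 falls and 3 rises among 18 tested, or 9 and 2 with the length term. In glycolysis and hypoxia 10 of 25 rose and 5 fell, at a median of 0.02, or 7 and 7 with the length term. ANKRD37, a target of the hypoxia factor HIF1, had 40.8 and 38.9 CPM with H11, against 9.57 and 7.88 CPM untreated, whereas VEGFA, another, had 37.3 and 34.5 CPM, against 72.0 and 90.7 CPM. Leaving out either H11 library left 3 falls among the replication genes, and leaving out H11 replicate 1 left 3 among the glycolysis and hypoxia genes. Over all genes 17.2% rose and 15.2% fell, and no list was tested as a set.

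The second question was whether H11 acted differently in optimized cells than in wild-type cells. The difference between the H11 responses, optimized minus wild-type, was positive for 2480 genes (19.5%) and negative for 2210 (17.4%) by edgeR's quasi-likelihood test, and more than 2-fold for 13.6% and 9.6%. Wild-type libraries carried an opposite length trend, with a length rho of 0.29 and 0.28 with H11, against 0.09 and 0.11 untreated, so counts with the length term follow. Of 20 MHC class I genes 13 responded more in optimized cells and 1 less, or 14 and 1 with the length term. Of 58 antiviral genes 19 responded more and 8 less, or 15 and 4 with the length term. Larger shares of other lists responded more in optimized cells, with 49 of 58 ribosomal protein genes and none less, or 40 with the length term, and 30 of 41 respiratory chain genes and 1 less, or 24 and 1 with the length term. The length trend moves with these counts, and its part in them beyond the length term was not tested. The factors that scaled library size were 1.26 and 1.27 in wild-type cells with H11, against 0.81 and 0.83 in optimized cells with H11.

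Among the class I genes, B2M averaged 6244 CPM with H11, against 347 CPM untreated in optimized cells, and 420.1 CPM with H11, against 545 CPM untreated in wild-type cells, a difference of responses of 4.54 on the log2 scale, or 5.22 without untreated optimized replicate 1. PSMB9 averaged 312 CPM, against 20.1 CPM in optimized cells, and 12.7 CPM, against 12.8 CPM in wild-type cells, a difference of 3.98. For both genes the average with H11 lay above the untreated average in optimized cells. In wild-type cells it lay below for B2M and was nearly equal for PSMB9, whose SDs were 3.27 CPM with H11 and 0.56 CPM untreated. ISG15 was induced in both genotypes, averaging 7140 CPM, against 15.2 CPM in optimized cells, and 586 CPM, against 18.1 CPM in wild-type cells, a difference of 3.83 ± 0.20 with an adjusted p of 2.6e-09 by edgeR's quasi-likelihood test. IFITM1 averaged 671 CPM, against 4.20 CPM in optimized cells, and 46.4 CPM, against 5.33 CPM in wild-type cells, a difference of 4.22.

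Of other interferon genes, USP18 differed little, STAT2 differed the other way, and the value of OAS1 depended on which untreated library was kept. USP18 averaged 153 CPM with H11, against 19.6 CPM untreated in optimized cells, and 94.8 CPM, against 20.03 CPM in wild-type cells, a difference of 0.72 that was no longer called without untreated wild-type replicate 2, at 0.60. STAT2 averaged 83.4 CPM, against 35.5 CPM in optimized cells, and 132 CPM, against 31.8 CPM in wild-type cells. Its difference was -0.82 with an adjusted p of 0.0023 by edgeR's quasi-likelihood test, or -0.56 with the length term. OAS1 had a difference of 3.70 that turned to -0.60 without untreated wild-type replicate 2. It rests on untreated levels near 0, averaging 0.10 CPM in optimized cells and 0.25 CPM, with an SD of 0.35 CPM, in wild-type cells. With H11, OAS1 averaged 460 CPM in optimized cells and 67.9 CPM in wild-type cells. Targets of TGF-beta, YAP and WNT, 7 of 12, responded less in optimized cells and none more. CYR61, a YAP target, averaged 27.0 CPM with H11, against 19.4 CPM untreated in optimized cells, and 215 CPM, against 19.4 CPM in wild-type cells, a difference of -2.98. The amino-acid response list, by contrast, had 8 members with a more negative and 4 with a more positive response in optimized cells, among 28. The median difference over that list was -0.23, beside its median of -1.48 for H11 against untreated in optimized cells. For SLC7A5 the difference was -1.28, or -0.86 with the length term. SLC7A5 was also lower with H11 in wild-type cells, averaging 204 CPM, against 311 CPM untreated. So was SLC7A11, averaging 52.3 CPM with H11, against 104 CPM untreated. IDI1 averaged 414 CPM with H11, against 110.3 CPM untreated in optimized cells, and 93.8 CPM, against 112 CPM in wild-type cells, a difference of 2.16.

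**Figure D4:**
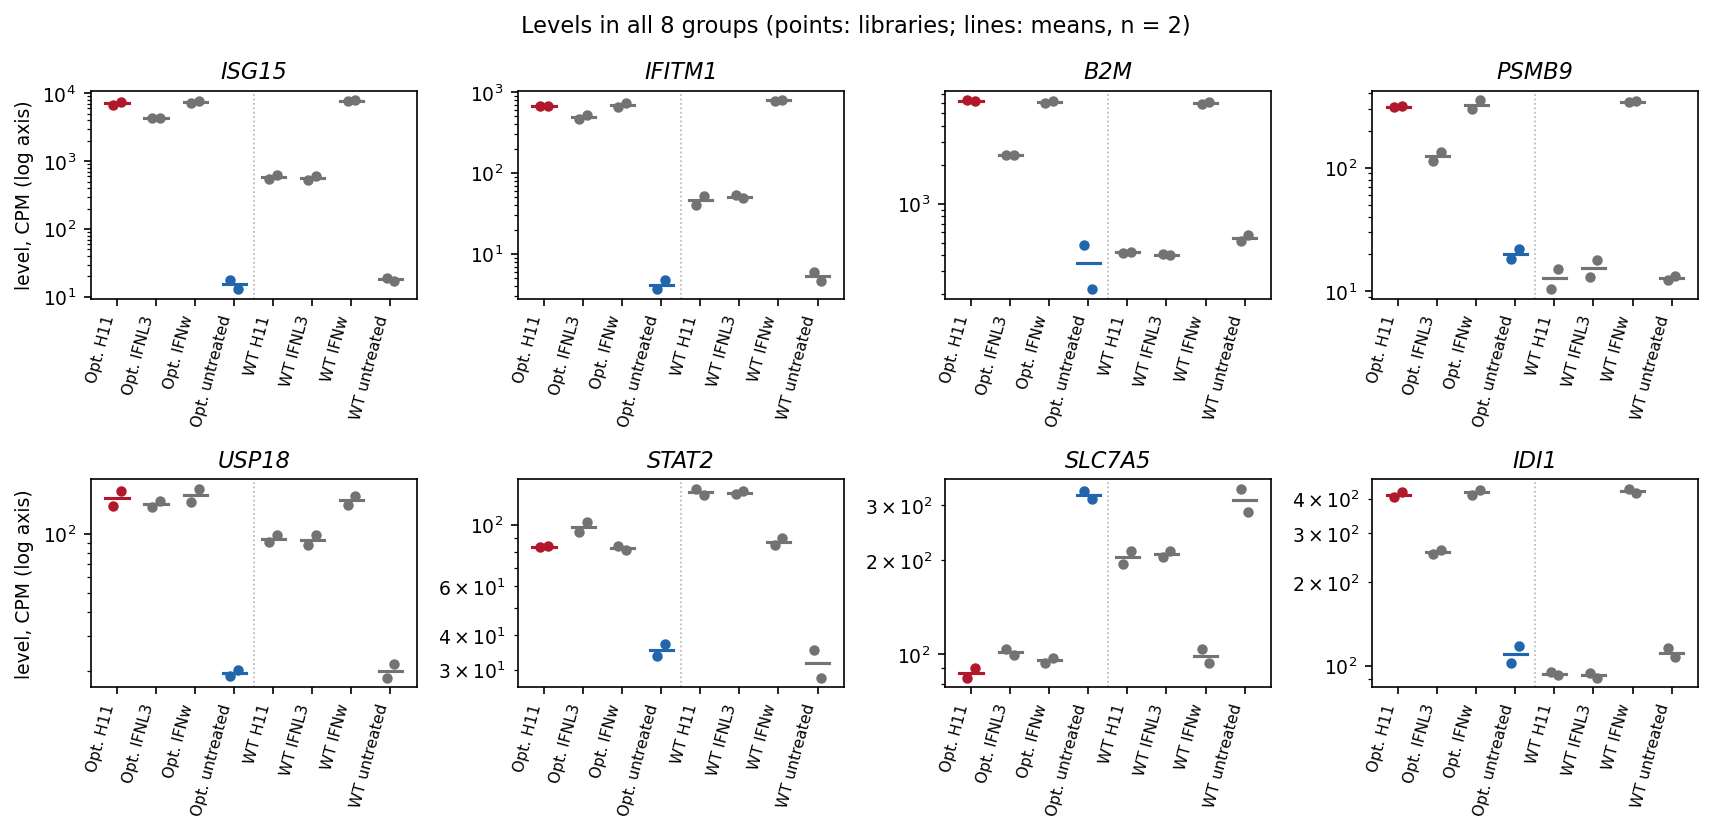
CPM on a log axis for ISG15, IFITM1, B2M, PSMB9, USP18, STAT2, SLC7A5 and IDI1 in the libraries of all 8 groups, each point 1 library. B2M averages 6244 CPM in optimized cells with H11, against 347 CPM in untreated optimized cells, and 420.1 CPM in wild-type cells with H11, against 545 CPM in untreated wild-type cells. In wild-type cells it averages 6005 CPM with IFNw and 403 CPM with IFNL3.

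H11 was next set against IFNL3, the protein it was derived from, at the same 100 nM in optimized cells. By edgeR's quasi-likelihood test 1360 genes (10.7%) were higher with H11 and 872 (6.86%) lower, and more than 2-fold 154 (1.21%) were higher and 59 (0.464%) lower. Antiviral genes were higher with H11 in 16 of 58 cases and lower in 3, at a median log2 difference of 0.26, or in 12 and 3 cases with the length term. MHC class I genes were higher in 9 of 20 cases and lower in none, at a median of 0.65, or 0.59 with the length term. IFNL3 libraries had a length rho of 0.06 each, against which the H11 libraries stood at -0.30.

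ISG15 had 6757 and 7523 CPM with H11, against 4373 and 4367 CPM with IFNL3, a log2 difference of 0.71 ± 0.13. B2M had 6279 and 6209 CPM with H11, against 2387 and 2375 CPM with IFNL3, a log2 difference of 1.39 ± 0.22. PSMB9 had 308 and 314 CPM with H11, against 114 and 134 CPM with IFNL3, a log2 difference of 1.33 ± 0.16 with an adjusted p of 8.9e-05 by edgeR's quasi-likelihood test. H11 libraries lay above IFNL3 libraries for all 3 genes. IFI27 had 3179 and 2907 CPM with H11, against 1057 and 1108 CPM with IFNL3, a log2 difference of 1.49 ± 0.16. For USP18 the log2 difference was 0.10, and for SLC7A5 -0.22, and neither was called. In the amino-acid response list 2 of 28 tested genes were higher with H11 than with IFNL3 and 2 lower, at a median of 0.10.

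Growth factor response genes went the other way. Of 22 tested, 7 were lower with H11 than with IFNL3 and 1 was higher, and the counts were the same with the length term. EGR1, an early transcription factor, had 4.36 and 6.11 CPM with H11, against 16.6 and 20.1 CPM with IFNL3, a log2 difference of -1.81 ± 0.36. EGR2 had 1.15 and 1.85 CPM with H11, against 6.82 and 5.80 CPM with IFNL3, and ETV5 had 0.77 and 0.85 CPM, against 3.77 and 6.91 CPM. DESeq2 did not call EGR2 and ETV5. Ribosomal protein genes were higher with H11 in 32 of 58 cases, or in 20 with the length term, and respiratory chain genes in 19 of 41, or in 15.

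No gene was called between H11 and IFNw, also at 100 nM in optimized cells. The count was 0 of 12704 by edgeR's quasi-likelihood test or by DESeq2, and 279 (2.2%) had an unadjusted p under 0.05. The libraries of the groups did not overlap for 28.8% of genes, against 61.2% for H11 and untreated. ISG15 had 6757 and 7523 CPM with H11, against 7263 and 7767 CPM with IFNw, a log2 difference of -0.07 with a 95% interval of -0.32 to 0.17. B2M had 6279 and 6209 CPM with H11, against 5973 and 6173 CPM with IFNw, with an interval of -0.37 to 0.46. PSMB9 had an interval of -0.37 to 0.26, SLC7A5 of -0.37 to 0.11 and IDI1 of -0.24 to 0.19. Of 9911 genes with a mean of at least 5 CPM, 9480 had an interval within 2-fold in either direction. The intervals were within 2-fold for 50 of 58 antiviral genes, 17 of 20 class I genes and 22 of 28 amino-acid response genes. The length rho was -0.31 in both IFNw libraries, near that of the H11 libraries.

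**Figure D5:**
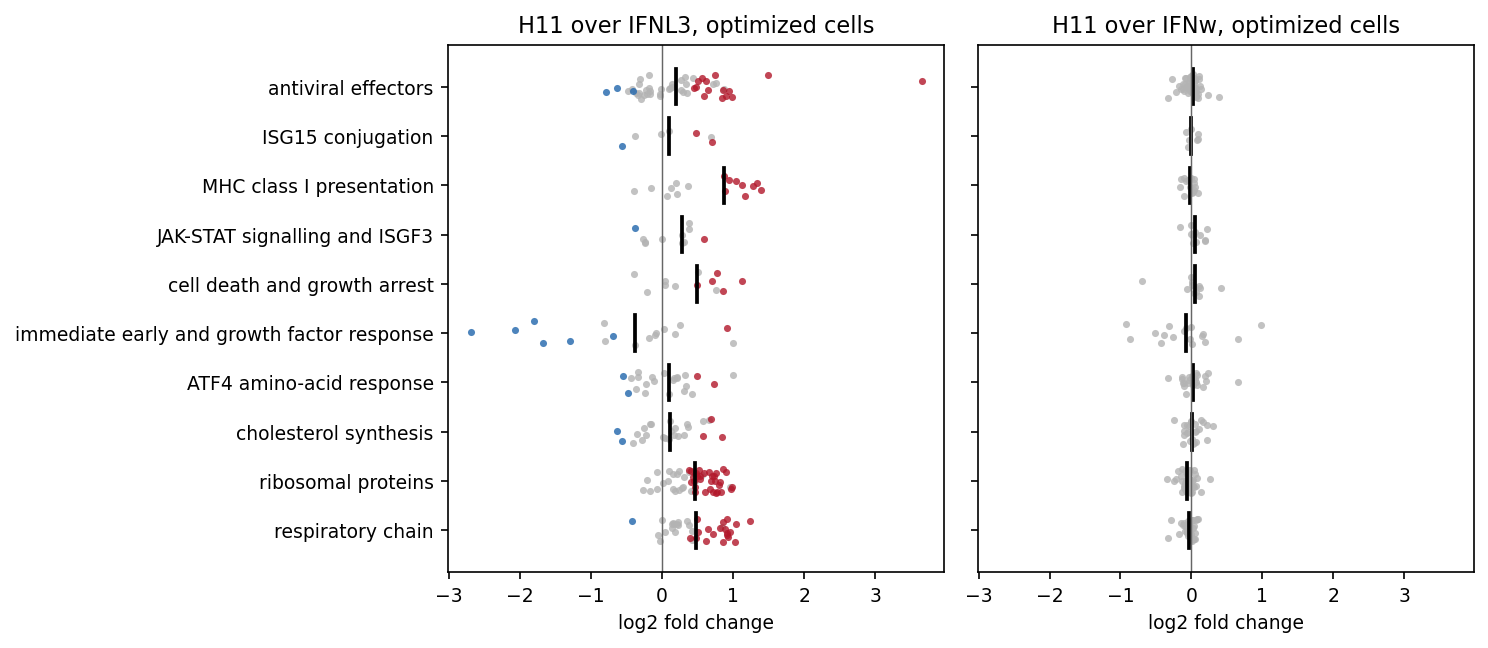
Log2 difference of H11 over IFNL3 in the left panel and of H11 over IFNw in the right panel for members of 10 gene lists with a mean of at least 5 CPM, each point 1 gene, red where higher with H11, blue where lower and grey where not called, with bars for the median of the genes drawn. In the left panel the red MHC class I points lie to the right of 0 and the blue growth factor response points to the left, and in the right panel all points are grey.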

How the data were processed

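Each of the 16 samples has a deposited table of raw read counts for 20812 targets made by the authors, on hg19 per the submitters' processing notes. Sources used here name neither aligner nor counting tool. The labels name column-purified RNA and an Ion Torrent sequencing kit. The 10 spike-in targets were left out, which leaves 20802 gene targets, and 27 symbols that had been turned into dates were restored from their Entrez identifiers. Libraries held 5331203 to 9822088 reads, and intervals and limits given for reads cover counting error only.

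Counts were tested in R 4.3.3 with edgeR 4.0.16, on 12704 genes kept by filterByExpr, with TMM scaling, 1 fit over all 8 groups and Benjamini-Hochberg adjustment at 0.05. The standard error is the log2 fold change divided by the root of the quasi-likelihood F. The biological coefficient of variation was 13.3%. CPM values use the TMM library sizes. A limit of 3 reads over the group stands for 0 reads. The script was tested on simulated counts. Alternatives were DESeq2 1.42.0, its size factors in edgeR, no filter, only the libraries compared, a replicate block, each library left out and an offset for transcript length, fitted as a spline on 5 degrees of freedom for the 97.1% of tested genes with a length. Promoters came from RefSeq on GRCh38.p14.

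The groups, genes and gene lists were chosen with earlier results of these data known. Genes are named as the 15 largest called changes in each direction for H11 against untreated with a mean of at least 5 CPM and no overlap, up to 6 called and 2 uncalled members of each list, a panel, the receptors and kinases, and up to 5 genes in each direction for the other comparisons. ASNS, BST2, EIF2AK2, IFITM3, IRF5, NLRC5, PLSCR1 and SREBF2 were named after their values were seen. Some results are not reported here.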

Additional observations from a re-analysis of the deposited data

Results flagged for a closer look

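The response to H11 differed between optimized and wild-type cells in a test of the difference itself, an interaction term in edgeR's quasi-likelihood test. The difference was positive for 2480 genes and negative for 2210. All values here are log2 differences of the H11 response, optimized minus wild-type. Among interferon genes they were 3.83 for ISG15, 4.22 for IFITM1, 4.54 for B2M, 3.98 for PSMB9 and 2.91 for UBE2L6. CARD16, which is on none of the lists, gave 5.34, or 4.74 without untreated optimized replicate 1. Its untreated means were low, at 0.50 CPM in optimized cells and 1.28 CPM in wild-type cells. IFI27 gave 6.47 on few untreated reads, which was 5.20 and no longer called without untreated wild-type replicate 1 and 7.17 without untreated optimized replicate 1. OAS1 gave 3.70 on untreated means of 0.10 CPM in optimized cells and 0.25 CPM in wild-type cells. That difference was -0.60 without untreated wild-type replicate 2 and 7.05 without untreated optimized replicate 1. USP18 gave 0.72, while STAT2 gave -0.82 and TRIM25 -1.25. With the length term STAT2 gave -0.56 and TRIM25 -0.82.

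Outside the interferon genes the difference was 2.16 for IDI1, 3.17 for RPS27 and 2.93 for COX7B, the last pair being 2.81 and 2.58 with the length term. It was -1.28 for SLC7A5 and -1.84 for SLC7A11, or -0.86 and -1.13 with the length term. NEAT1, a long noncoding RNA, gave -3.60, with means of 53.1 CPM with H11, against 112 CPM untreated in optimized cells, and 600.4 CPM, against 104 CPM in wild-type cells. CYR61 gave -2.98. With 2 libraries a group, no test for a library far from the others of its group was made.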

How the results depend on the processing

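For H11 against untreated, 2185 genes were called up and 1931 down. A fit of only the 4 libraries compared called 1256 up and 765 down. Leaving out 1 library gave 1751 to 2497 up and 1065 to 2015 down, the lowest counts of falls being 1065 without H11 replicate 2 and 1076 without H11 replicate 1. DESeq2 called 2204 up and 1646 down, and the length term gave 1994 up and 1771 down. For H11 against IFNL3, with 1360 up and 872 down, leaving out 1 library gave 693 to 883 up and 264 to 353 down. Leaving out a library leaves 1 in its group, whose spread is then taken from the remaining groups. The comparison with IFNw called no gene under the alternatives run. The replicate numbers are not said to mark a shared culture or day. Same-numbered libraries correlated in their deviations by 0.08 to 0.21, and by 0.11 for optimized H11 with optimized untreated. A replicate block gave 2494 up and 2267 down for H11 against untreated, which include all genes called without it.

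The median of the negative feedback list, -0.28, was -0.439 without untreated optimized replicate 1 and 0.023 without replicate 2. The OAS1 difference of responses, 3.70, was -0.60 without untreated wild-type replicate 2 and 7.05 without untreated optimized replicate 1. The cause was not tested. Of 3783 values over 348 named results, 3446 kept their side of the threshold, 283 lost their call and 53 gained one. Another 1 changed direction for a gene called in a fit compared. A change of direction where neither fit called the gene was counted among the 3446. Untreated depth, 5331203 reads in replicate 2, limits the folds of genes near 0 reads.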
